A study of Mus musculus with 8 samples.

Results

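At birth (postnatal day 0, P0), cells of the mouse olfactory bulb that carried a neurotensin reporter were compared with the cells of the same tissue that did not. The comparison rests on 2 of the 8 libraries of the series, 1 of GFP-positive and 1 of GFP-negative cells. All mice had a mixed 129 x C57BL/6J background and were homozygous or heterozygous for an NTS-IRES-tauGFP allele, in which the neurotensin gene also yields green fluorescent protein (GFP) fused to tau. The control cells thus carry the allele too and were told apart only by fluorescence after papain dissociation. The sources used here do not state how many pups entered each sort, their mix of homozygotes and heterozygotes, or the gates. Because both source fields say GFP-positive, titles and the cell population entry were used to assign each library.

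The projection neurons of the bulb are mitral and tufted cells, glutamatergic neurons that carry odour information to the olfactory cortex. They are born locally from a pallial lineage that uses factors such as Tbr1 and Eomes. The bulb's granule and periglomerular cells are mostly inhibitory interneurons that make the transmitter GABA. They descend from Dlx-expressing progenitors outside the bulb, migrate in and keep arriving after birth.

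The 3 genes that mark these cell classes are shown by their promoters, from 250 bases before to 50 after the start site, because the comparison is read through them (RefSeq, build GRCm38.p6, 5′ to 3′). Nts is at chr10:102490369-102490668 on the minus strand, Slc17a6 at chr7:51621580-51621879 on the plus strand and Gad1 at chr2:70561879-70562178 on the plus strand. Capitals mark matches to 7 motifs that were chosen after the P0 values had been seen.
Nts: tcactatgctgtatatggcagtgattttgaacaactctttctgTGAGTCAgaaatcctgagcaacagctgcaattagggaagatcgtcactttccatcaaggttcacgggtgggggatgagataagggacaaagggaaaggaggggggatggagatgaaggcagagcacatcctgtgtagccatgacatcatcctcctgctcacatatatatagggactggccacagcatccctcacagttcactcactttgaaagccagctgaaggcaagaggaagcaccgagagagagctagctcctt
Slc17a6: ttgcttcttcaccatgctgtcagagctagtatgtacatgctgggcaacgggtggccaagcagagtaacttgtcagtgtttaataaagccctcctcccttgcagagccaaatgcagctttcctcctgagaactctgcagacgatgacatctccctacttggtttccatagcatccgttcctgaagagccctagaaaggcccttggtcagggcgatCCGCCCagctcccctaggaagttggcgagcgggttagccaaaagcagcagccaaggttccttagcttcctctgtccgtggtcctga
Gad1: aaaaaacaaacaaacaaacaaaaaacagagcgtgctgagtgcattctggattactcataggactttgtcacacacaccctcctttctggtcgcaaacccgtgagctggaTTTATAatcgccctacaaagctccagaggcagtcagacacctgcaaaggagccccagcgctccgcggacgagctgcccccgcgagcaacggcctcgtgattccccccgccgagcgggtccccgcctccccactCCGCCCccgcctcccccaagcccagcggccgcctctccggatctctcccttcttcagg
Both strands were searched. The Nts window held TGANTCA, the AP-1 motif, which was in 7.81% of all 32851 promoters. The Slc17a6 window held the GC box, CCGCCC, which was in 35.7% of promoters. The Gad1 window held the same GC box and, on the other strand, the core promoter element TATAAA, which was in 13.6% of promoters. A second listed start of Slc17a6, not shown, held the homeodomain core TAATTA, found in 5.29% of promoters. It also held the E-box CAGATG, found in 17.2% of promoters. The cyclic AMP response element TGACGTCA was in 1.79% of promoters and in none of the windows shown. The T-box motif AGGTGTGA was in 1.28% of promoters and likewise in none of the windows shown. Over the kept protein-coding genes with a listed promoter, TAATTA was in 6.52% of the 184 genes that were higher past 4-fold, 5.04% of the 139 that were lower and 3.13% of all 6547. The GC box was in 70.7%, 61.2% and 72.4% of the same groups. In the same order, TATAAA was in 8.7%, 12.2% and 7.82%, and the AP-1 motif in 7.07%, 6.47% and 5.35%. The E-box was in 13.04%, 15.1% and 12.6%. The cyclic AMP response element was in 2.17%, 3.6% and 4.09%, and the T-box motif in 0.54%, 0.72% and 0.84%. The TAATTA shares of the higher and lower genes rest on 12 and 7 genes. The motifs were chosen after the values had been seen and no test was run, so nothing is read from these shares. A match describes letters in this window and is not a site of binding.

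Levels are in FPKM (a fragment count adjusted for transcript length and library size), and a difference is given as log2((GFP-positive + 1)/(GFP-negative + 1)), which understates differences of low genes. Rows were kept where the higher library had 5 FPKM or more. With 1 library on each side there is no estimate of error and no test, so every value below is a description of these libraries. A gene is called higher or lower where it was past 4-fold, a log2 ratio of 2 or more either way. In a bulk library, fewer cells of a type and less RNA per cell cannot be told apart. The libraries had an implied scale of 7210000 and 6880000 reads, which is relative and was read from steps in low values. A level of 5 FPKM on a transcript of 2000 bases then stands for 64.9 reads in GFP-positive and 61.9 in GFP-negative cells.

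The marker genes lay in the direction of the labels. Nts, the neurotensin precursor whose locus drives the reporter, stood at 859 FPKM in GFP-positive and 4.33 FPKM in GFP-negative cells, a log2 ratio of 7.33. Since the sort used this locus, that value checks the labels and is not a finding. Slc17a6, the vesicular glutamate transporter of many projection neurons, was at 59.2 and 8.06 FPKM, a log2 ratio of 2.73. Gad1, the enzyme that makes GABA, was at 2.18 and 133 FPKM, a log2 ratio of -5.40. Mapt, which encodes tau, was at 379 and 120 FPKM, a log2 ratio of 1.65, where endogenous tau and the reporter's tau cannot be told apart.

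Of 10316 kept rows, 463 (4.49%) were higher and 464 (4.5%) were lower in GFP-positive cells. Many of those 927 rows were short noncoding RNAs, pseudogenes or clone and predicted names, 444 in all, and 388 were listed at 0 in 1 library. Either way, 8.99% of kept rows passed 4-fold. Among the 8193 single protein-coding genes, 242 (2.95%) were higher and 203 (2.48%) lower, 5.43% either way, and 17 of these 445 were listed at 0 in 1 library. The median log2 ratio of the protein-coding genes was -0.01, and 6795 of them (82.9%) lay within 2-fold. Just inside the threshold were Nfic at 34.2 and 7.76 FPKM (log2 ratio 2.01) and Snx7 at 1.96 and 10.8 FPKM. Just outside it were Lnx2 at 5.19 and 0.550 FPKM and Lrrc16b at 0.916 and 6.65 FPKM.

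**Figure D1:**
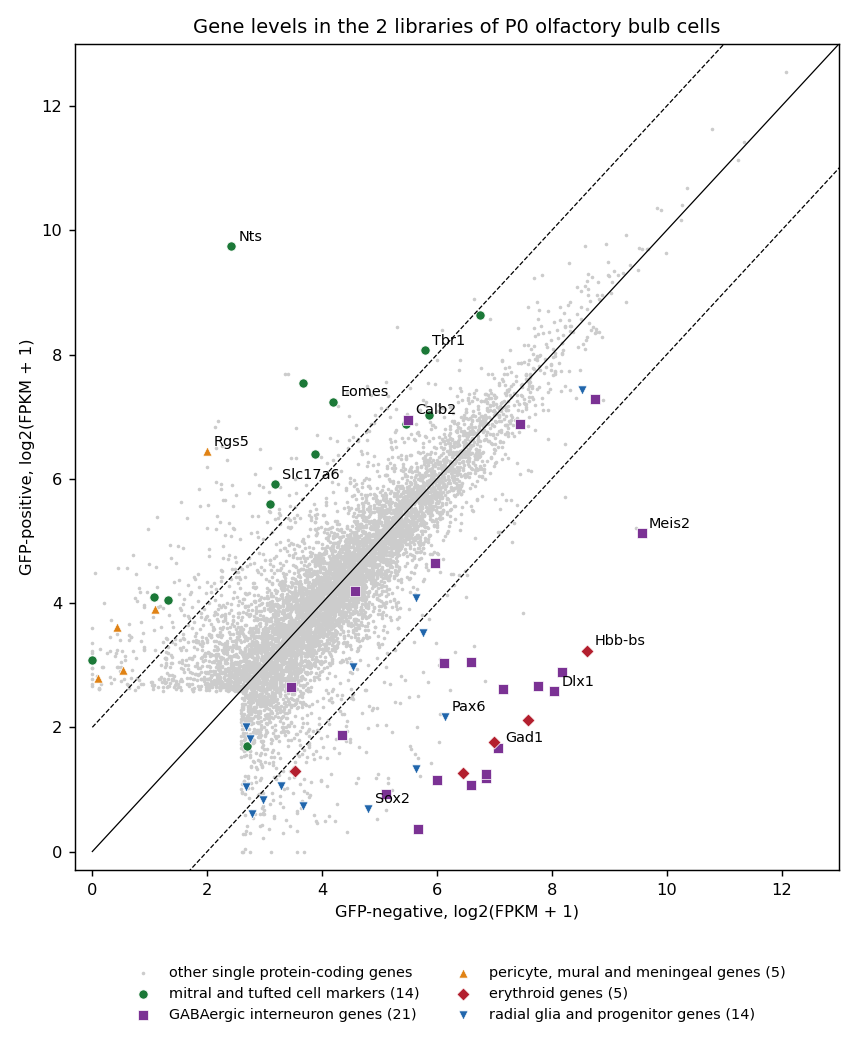
Level of each kept single protein-coding gene in the GFP-positive library (vertical, log2(FPKM + 1)) against the GFP-negative library (horizontal, same scale), 1 library each. Dots are genes, coloured for 5 lists with the number of kept members drawn; the solid line is equality and the dashed lines are 4-fold. Nts lies far above the upper dashed line at 859 against 4.33 FPKM, and Gad1, Dlx1 and Meis2 lie below the lower one.

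Genes were ranked among kept rows of a single gene, without predicted or clone names, small RNAs, mitochondrial or Y-linked genes, or Xist. Of these, the genes with the greatest excess in GFP-positive cells after Nts encode matrix, signalling and membrane proteins and transcription factors. Lamb1, a laminin subunit of the basement membrane, was at 121 FPKM in GFP-positive and 3.58 FPKM in GFP-negative cells (log2 ratio 4.74). Epb4.1l4a, a member of the band 4.1 family of membrane-skeleton proteins, was at 113 and 3.37 FPKM (4.70). Cnih3, an auxiliary subunit of AMPA-type glutamate receptors, was at 89.0 and 3.47 FPKM (4.33). Kit, the receptor tyrosine kinase for stem cell factor, had the highest level among those named after Nts, at 206 and 9.57 FPKM (4.29). Each of these 4 was above 80 FPKM in one library and below 10 FPKM in the other.

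Membrane proteins continued that list. Tmem132d, a transmembrane protein, was at 21.4 and 0.0356 FPKM (4.43), a GFP-negative level worth less than 1 read on a transcript of 2000 bases. Kcnj6, the inward-rectifier potassium channel GIRK2, was at 35.7 and 0.946 FPKM (4.24). Chrm2, a muscarinic acetylcholine receptor, was at 22.6 and 0.517 FPKM (3.96). Of the transcription factors, Fezf2 was at 48.5 and 1.93 FPKM (4.08), Pou3f1 at 56.3 and 2.62 (3.98) and Tfap2e at 77.6 and 4.08 (3.95). Fezf2 is a forebrain patterning and projection neuron factor, and Tfap2e is an AP-2 factor. Others among the 20 ranked genes with the highest ratios were Rgs5, Rprm, Cntn4, Radil, Hmcn1, Arid5b and Mmp9, with log2 ratios from 3.80 to 4.45.

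In the same ranking, the genes with the greatest excess in GFP-negative cells were led by the factors of the interneuron lineage. Dlx2, a homeodomain factor needed for forebrain interneurons, was at 1.28 FPKM in GFP-positive and 115 FPKM in GFP-negative cells (log2 ratio -5.67). Dlx6 was at 1.38 and 115 FPKM (-5.61), Dlx1 at 4.99 and 263 (-5.46) and Dlx5 at 5.33 and 215 (-5.09). Sp9 and Sp8, zinc-finger factors of the same lineage, were at 0.289 and 50.0 FPKM and at 1.23 and 63.0 FPKM (-5.31 and -4.84). Dlx6os1, the noncoding transcript that overlaps Dlx6 on the other strand, has 2 rows, listed at 0 and 185 FPKM and at 1.53 and 97.0 FPKM. Since no source used here states the strand setting, reads of Dlx6 and Dlx6os1 may not be told apart. Meis2 had the highest GFP-negative level in this group, at 33.8 and 758 FPKM (-4.45).

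The 4 hemoglobin rows stood among the same top 20. Hbb-bs was at 8.41 and 391 FPKM (-5.38) and Hba-a1 at 3.35 and 191 FPKM (-5.47), and copies such as Hba-a1 and Hba-a2 share near-identical sequence, so their levels are uncertain one by one. Alas2, the erythroid enzyme of heme synthesis, was at 1.46 and 10.5 FPKM (-2.23). All 5 kept erythroid genes were lower in GFP-positive cells, against 2.48% lower over all protein-coding genes. Of these 5, 4 genes, all but Hbb-bs, reached 5 FPKM only in the GFP-negative library, so the filter fixes their direction. The count thus describes the list and does not support a difference of it. The median log2 ratio over the 7 genes with a row was -5.19, with a summed level of 17.01 FPKM against 806 FPKM. Slc4a1, the anion exchanger of the erythrocyte membrane, was listed at 0 and at 0.550 FPKM. Whether erythroid RNA in the GFP-negative cells moved any other gene group was not tested.

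**Figure D2:**
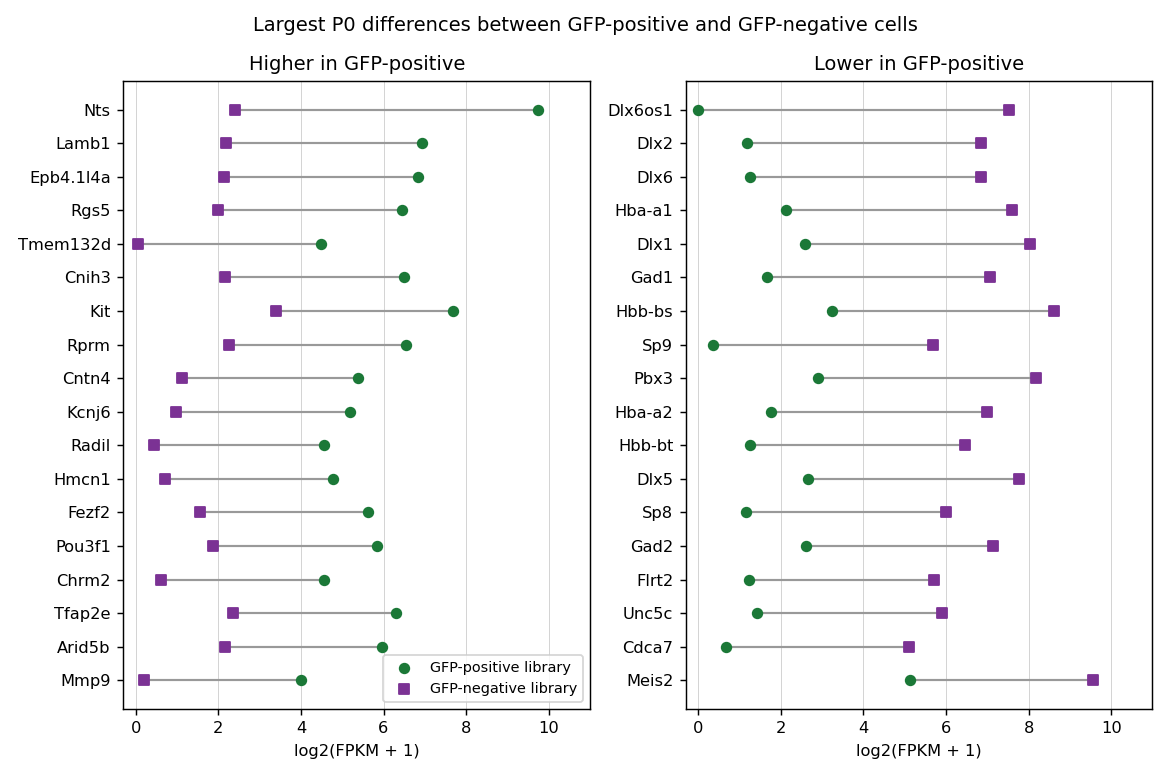
Genes among the 20 highest log2 ratios (left) and the 20 lowest (right) of the ranked genes. Each is drawn by its level in the GFP-positive (circle) and GFP-negative (square) library in log2(FPKM + 1). A line joins the libraries, and each symbol is 1 library. Dlx6os1 is drawn at its row listed at 0 in GFP-positive cells, against 185 FPKM.

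Most kept markers of projection neurons were higher in GFP-positive cells. Of 20 mitral and tufted cell markers, 18 had a row of their own and 14 were kept. Of these, 10 were higher past 4-fold, 0 were lower and 4 lay within, against 2.95% higher over all protein-coding genes. The median was 2.62 over the kept members and 2.39 over the 18 with a row. Without Nts, whose locus was sorted on (an alternative added after seeing the data), 9 of 13 kept markers were higher, with medians of 2.52 and 2.28. A kept member can be kept through the library in which it is high, so these counts describe the list and do not support a difference of it.

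Within that list, Eomes (Tbr2), a T-box factor of the glutamatergic lineage, was at 150 and 17.3 FPKM (log2 ratio 3.05). Tbr1, the T-box factor of early-born pallial neurons, was at 267 and 54.3 FPKM (2.28). Barhl2, a homeodomain factor, was at 82.95 and 13.7 FPKM (2.52), and Cdhr1, a cadherin-related protein of mitral and tufted cells, was at 16.1 and 1.10 FPKM (3.03). Cck, a neuropeptide of tufted cells, was at 7.49 FPKM in GFP-positive cells and listed at 0 in GFP-negative cells. Ntng1, a netrin-G family adhesion protein, lay the other way at 2.23 and 5.48 FPKM. Tbx21, which marks mature mitral and tufted cells, was at 0.484 and 0.317 FPKM, and Slc17a7 was at 2.78 and 0.636 FPKM, both below the minimum.

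The interneuron list ran the other way. Of its 25 genes, 21 were kept, 15 were lower and 0 higher, against 2.48% lower over all protein-coding genes, with a median of -4.45 over the kept members and -3.55 over all 25. Of the 25, 21 had a ratio below 0 and 2 above. Lower members such as Gad1, Dlx2 and Sp9 reached 5 FPKM only in the GFP-negative library. The filter thus fixes their direction, so the count describes the list and does not support a difference of it. Gad2 was at 5.11 and 141 FPKM (-4.54) and Slc32a1, the vesicular GABA transporter, at 0.906 and 33.7 FPKM (-4.19). Synpr, synaptoporin, was at 7.24 and 68.4 FPKM (-3.08). Calb2, which marks part of the interneurons, went against the list at 123 and 44.0 FPKM (1.46), and Etv1 was at 117 and 174 FPKM (-0.57). Vip and Pvalb were listed at 0 in both libraries. Of the 8 dopaminergic genes, 3 were kept and 1 was lower: Nr4a2, a nuclear receptor of dopaminergic neurons, at 0.924 and 12.4 FPKM (-2.80). Th, the rate-limiting enzyme of dopamine synthesis, was at 0.765 and 1.59 FPKM.

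Pallial transcription factors had calls in both directions. Of 17 with a row of their own, 15 were kept, 3 were higher and 3 lower, against 2.95% and 2.48% over all protein-coding genes. The median was 1.09 over the kept members and 1.07 over the 17, with 10 ratios above 0 and 7 below. Emx1 was at 28.6 and 1.98 FPKM (3.32) and Emx2 at 36.1 and 2.98 FPKM (3.22), both homeodomain factors of the dorsal telencephalon. Foxp2 was at 2.13 and 45.8 FPKM (-3.90), Nfib at 30.5 and 158 FPKM (-2.34) and Sox5 at 3.28 and 20.5 FPKM (-2.33). Fezf2, Emx1 and Emx2 reached 5 FPKM only in the GFP-positive library, and Foxp2 and Sox5 only in the GFP-negative library. The filter thus fixes their direction, so the counts describe the list and do not support a split of it. The highest levels of the list were in Bcl11a, at 344 and 205 FPKM (0.75), a factor on which the populations lay within 2-fold. Neurod1, whose row also names Cerkl, is not counted and was at 150 and 16.8 FPKM.

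**Figure D3:**
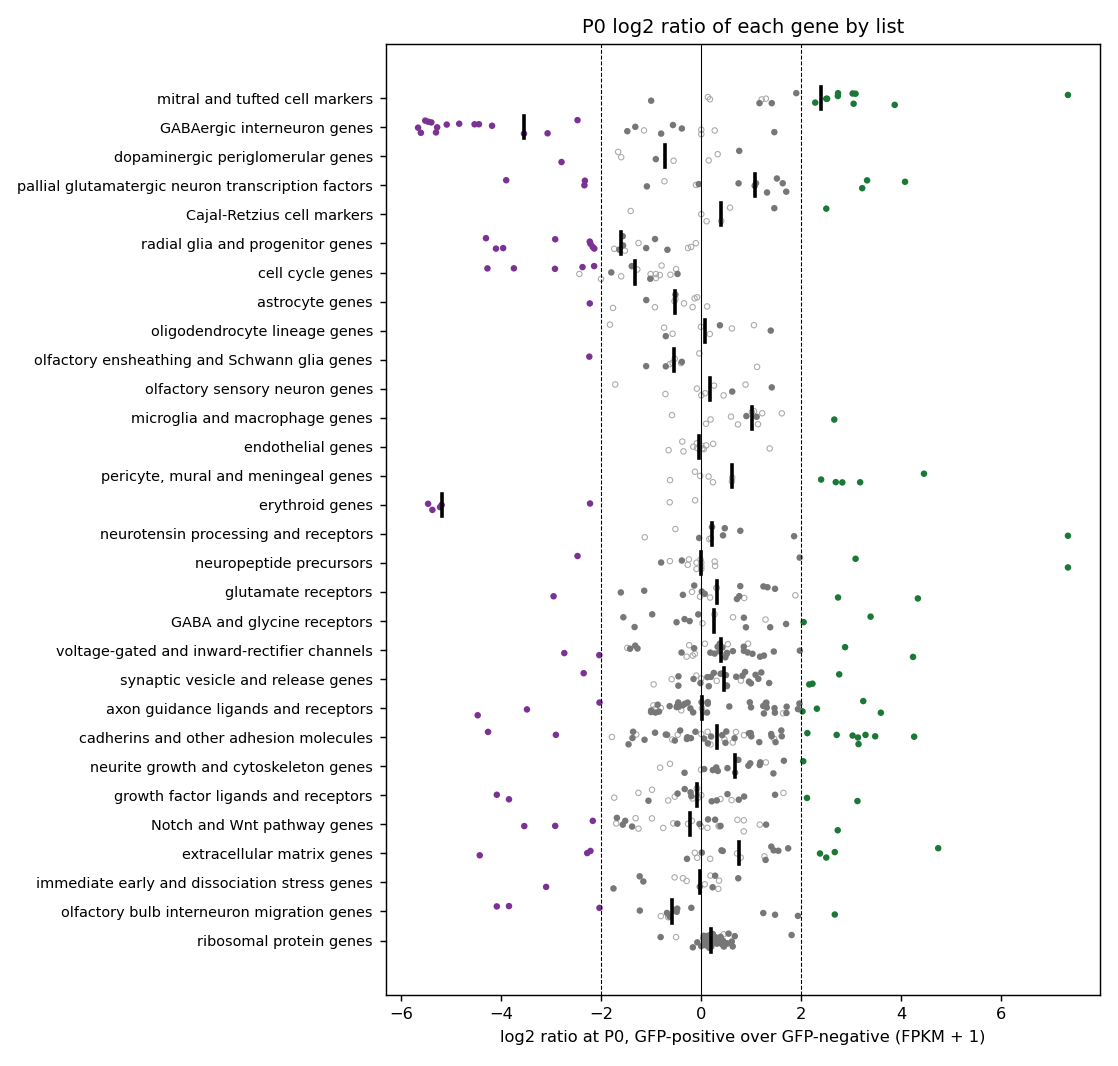
P0 log2 ratio of each gene with its own row in 30 lists, on the scale GFP-positive over GFP-negative (FPKM + 1), 1 library each. Filled dots reached 5 FPKM in the higher library (green higher, purple lower past 4-fold, grey within), open dots did not, and the black bar is the median over all dots of a list; the interneuron bar lies at -3.55 and the mitral and tufted bar at 2.39.

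Many progenitor and cell cycle genes stood at lower levels in GFP-positive cells, and part of them passed 4-fold. Of 20 radial glia and progenitor genes, 14 were kept and 8 were lower past 4-fold, with 0 higher, against 2.48% lower over all protein-coding genes, and all 20 had a ratio below 0 (median -1.61). Sox2, a progenitor factor, was at 0.614 and 26.8 FPKM (-4.11), Pax6 at 3.51 and 69.3 FPKM (-3.96) and Sox1 at 1.52 and 48.9 FPKM (-4.31). Sox2, Pax6 and Sox1 reached 5 FPKM only in the GFP-negative library, so the filter fixes their direction. Pax6 is also used by interneurons of the bulb. Fabp7, a lipid-binding protein of radial glia, was at 172 and 370 FPKM (-1.10), within 4-fold. Of 20 cell cycle genes with a row, 9 were kept, 4 of these lay within 4-fold and 5 were lower: Ccnd2, Ube2c, Mki67, Rrm2 and Ccna2. Each of the 5 reached 5 FPKM only in the GFP-negative library. The counts of both lists thus describe them and do not support a difference. Of the 20 cell cycle genes, 11 were below the minimum. All 20 had a ratio below 0, with a median of -1.34. Ccnd2, a G1 cyclin, was at 2.39 and 64.7 FPKM (-4.28), and Mki67 was at 0.630 and 11.4 FPKM (-2.93).

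Markers of other cell types were checked in both libraries. Their few calls stand beside 2.95% higher and 2.48% lower over all protein-coding genes and are not read as a result about the lists. Of 12 endothelial genes, 0 were kept, and their highest level was 2.78 FPKM in GFP-positive and 1.58 FPKM in GFP-negative cells. Of 13 microglia and macrophage genes, 3 were kept and 1 was higher, C1qb, at 5.32 FPKM against a value listed at 0. Of these 13 genes, 12 had a ratio above 0, and the list summed to 38.8 FPKM in GFP-positive and 12.8 FPKM in GFP-negative cells, a difference whose part in other results was not tested. Of 12 astrocyte genes, 3 were kept and Slc1a3 was lower, at 10.5 and 52.9 FPKM (-2.23), while Gfap and Aqp4 stayed below 0.5 FPKM in both libraries. The astrocyte list summed to 58.98 and 133 FPKM, most of it from Slc1a2 and Slc1a3. Of the 4 kept ensheathing and Schwann glia genes, Ednrb was lower, at 1.28 and 9.78 FPKM (-2.24). That list summed to 198 and 415 FPKM, most of it from Fabp7, which radial glia also use. Of the 7 Cajal-Retzius cell markers, 2 were kept and Reln was higher, while Trp73, Lhx1 and Lhx5 were below 0.5 FPKM in both libraries. The oligodendrocyte and olfactory sensory neuron lists had 0 genes past 4-fold, among 3 and 2 kept genes.

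Of 12 pericyte, mural and meningeal genes, 5 were kept and all 5 were higher in GFP-positive cells, against 2.95% higher over all protein-coding genes. The GFP-positive library was the only one in which any of these 5 reached 5 FPKM, so that the filter fixes their direction. Over all 12 the median log2 ratio was 0.62, with 9 above 0 and 3 below. Rgs5, a G-protein signalling regulator of pericytes, was at 86.2 and 2.98 FPKM (4.45), Vtn at 13.99 and 1.12 FPKM (2.82) and Abcc9, a potassium-channel subunit, at 11.2 and 0.349 FPKM (3.18). Kcnj8, its partner channel, was at 5.92 and 0.0730 FPKM (2.69), and Pdgfrb, the growth factor receptor that defines pericytes, was at 6.61 and 0.445 FPKM (2.40). Acta2, of smooth muscle, was at 0.175 FPKM and listed at 0. The collagen and matrix genes Col1a1, Col3a1, Dcn and Lum were each below 1 FPKM in both libraries. The list summed to 128 FPKM in GFP-positive and 7.76 FPKM in GFP-negative cells, and Rgs5 made up the larger part of the first sum. The part of this list in any other group was not tested. Laminins such as Lamb1 are made by vascular cells too. At E13, Lamb1 was at 105 FPKM in GFP-positive and 7.95 FPKM in GFP-negative cells. Rgs5 was then at 0.108 and 0.812 FPKM. Which cells the Lamb1 RNA came from was not tested.

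Of 7 kept genes of neurotensin processing and reception, Nts alone was past 4-fold. Scg2, secretogranin, was at 20.3 and 4.88 FPKM (1.86), and Cpe, a carboxypeptidase that trims peptides, at 97.4 and 71.8 FPKM (0.43). Pcsk1 and Pcsk2, the convertases that cut precursors, were below 2 FPKM in both libraries. The receptor Ntsr1 was at 0.868 and 3.09 FPKM and Ntsr2 was listed at 0 and at 0.432 FPKM. Among 6 kept neuropeptides, Nts and Cck were higher, and Penk, the enkephalin precursor, was lower, at 2.67 and 19.4 FPKM (-2.48). All protein-coding genes had 2.95% higher and 2.48% lower, and nothing is read from these few calls.

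Receptors, channels and vesicle genes had a few large differences, beside 2.95% higher and 2.48% lower over all protein-coding genes. These few calls are not read as a result about the lists. Of 15 kept glutamate receptor genes, 2 were higher, Cnih3 among them, and Grik3, a kainate receptor subunit, was lower, at 7.60 and 65.7 FPKM (-2.96). In GABA and glycine receptors, Gabra5 was higher, at 49.7 and 3.85 FPKM (3.39), and Gabrg3 was at 5.39 and 0.545 FPKM (2.05), of 13 kept. In channels, Kcnj6 and Cacna1e were higher and Cacna1g and Kcnd3 lower, of 27 kept. Cacna1e, the R-type calcium channel, was at 79.7 and 9.99 FPKM (2.88), and Kcnd3, an A-type potassium channel, was at 16.6 and 71.3 FPKM (-2.04). In vesicle genes, Sv2b at 36.1 and 4.48 FPKM (2.76), Rab3b and Syt1 were higher and Syn2 was lower, of 26 kept.

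Of 40 kept axon guidance genes, 4 were higher and 3 lower, 33 lay within 4-fold and the median was 0.12. These few calls stand against 2.95% higher and 2.48% lower over all protein-coding genes, and nothing is read from them about the list. Among netrin receptors of the Unc5 family, Unc5a was at 56.2 and 3.74 FPKM (3.59) and Unc5c at 1.69 and 58.7 FPKM (-4.47), so that they differ in opposite directions. Epha3, an ephrin receptor, was at 41.3 and 3.48 FPKM (3.24), Efna5, an ephrin ligand, at 52.3 and 9.73 FPKM (2.31) and Sema3a at 50.1 and 11.6 FPKM (2.02). Plxna4, a semaphorin co-receptor, was lower, at 1.15 and 23.1 FPKM (-3.49). Robo2, a slit receptor, was at 272 and 383 FPKM (-0.49) and Dcc, the netrin receptor, at 176 and 45.3 FPKM (1.93).

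Of 39 kept adhesion genes, 8 were higher and 2 lower, against 2.95% higher and 2.48% lower over all protein-coding genes. The median was 0.48. A member can be kept through the library in which it is high, so the counts only describe the list. Cntn2, Cntn3 and Cntn4, contactins of the axon surface, were higher, with Cntn2 at 348 and 38.7 FPKM (3.14). Alcam was at 112 and 10.6 FPKM (3.28), Nrcam at 179 and 26.5 FPKM (2.71), and Opcml at 59.1 and 4.39 FPKM (3.48). Cdh4, a classical cadherin, was at 140 and 31.5 FPKM (2.12). Nrxn3, a neurexin of presynaptic terminals, was lower, at 36.0 and 710 FPKM (-4.27), whereas Nrxn2 was at 28.3 and 25.8 FPKM (0.13). Pcdh8 was lower, at 0.829 and 12.7 FPKM (-2.91).

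**Figure D4:**
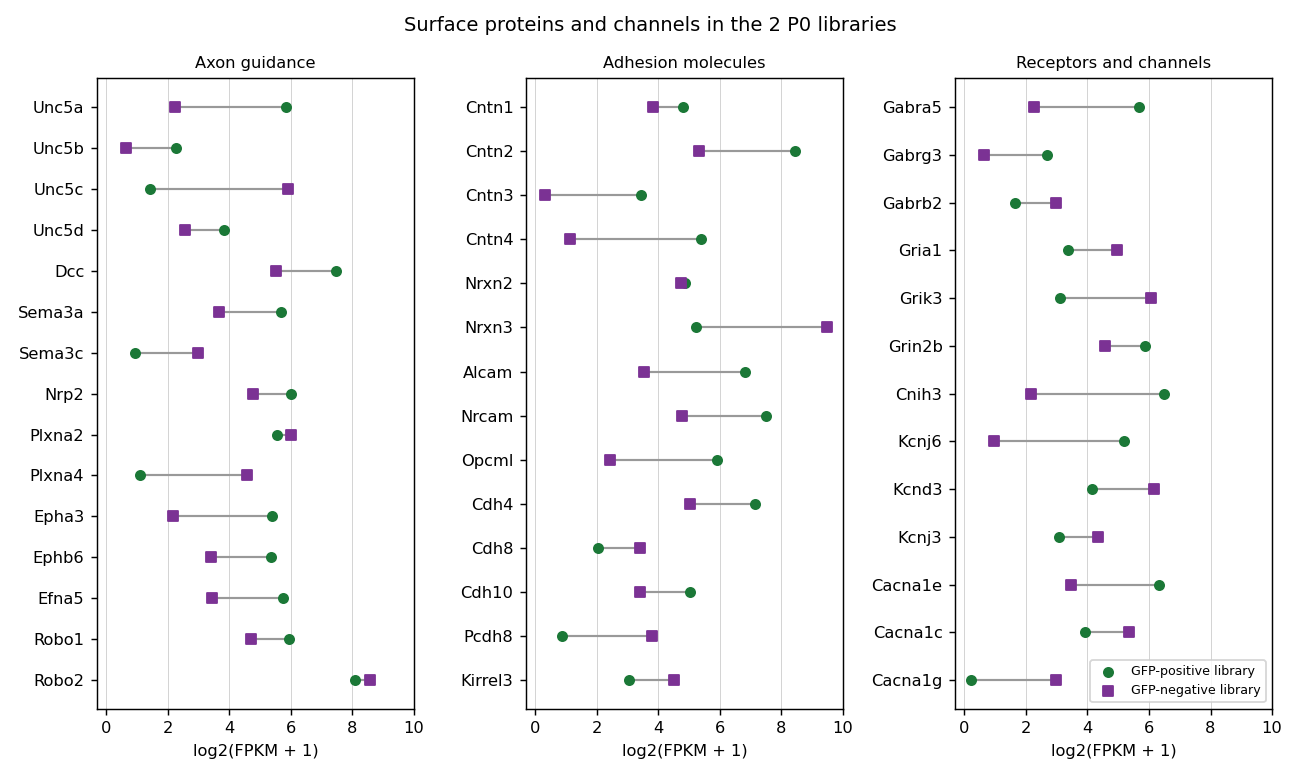
Surface proteins in the GFP-positive (circle) and GFP-negative (square) P0 library, in log2(FPKM + 1), by group; the genes were chosen after their values had been seen. Unc5a (56.2 and 3.74 FPKM) and Unc5c (1.69 and 58.7 FPKM) lie in opposite directions.

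Of 15 kept growth factor genes, 2 were higher and 2 lower, and of 14 kept interneuron migration genes 1, Tnr, was higher and 3 were lower. The shares over all protein-coding genes were 2.95% higher and 2.48% lower. Nothing is read from the few calls here about the growth factor, migration, matrix, or Notch and Wnt lists. Igf1, a growth factor, was higher at 46.1 and 9.88 FPKM (2.11) and Igfbp5 at 46.3 and 4.43 FPKM (3.12). Prokr2, the prokineticin receptor of migrating interneurons, was lower at 5.69 and 113 FPKM (-4.09), and Erbb4, a neuregulin receptor, at 3.64 and 65.7 FPKM (-3.85). In the matrix list, Lamb1, Lamc1, Reln and Tnr were higher, and Spon1, Bcan and Tnc were lower, of 16 kept. Spon1, F-spondin, was at 0.441 and 30.1 FPKM (-4.43). Reln, the secreted protein reelin, was at 47.5 and 7.58 FPKM (2.50). In the Notch and Wnt list, Fzd1 was higher and Mfng, Wnt5a and Hes5 were lower, of 14 kept.

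Some broadly expressed lists were read as well. The shares over all protein-coding genes were 2.95% higher and 2.48% lower, and nothing is read from the few calls of these lists. Of 43 kept ribosomal protein genes, 0 were past 4-fold, with a median of 0.20, and 42 of the 47 with a row had a ratio above 0. Of 15 kept neurite and cytoskeleton genes, Gap43 alone was higher, at 117 and 27.8 FPKM (2.04). The neurite list, which holds Mapt, had a median of 0.74 over kept members, and 15 of the 19 with a row had a ratio above 0. It is thus not a neutral reference. Of 8 kept immediate early genes, Nr4a1 was lower, at 8.28 and 78.8 FPKM (-3.10), while Fos was at 14.3 and 33.2 FPKM (-1.16) and Egr1 at 58.8 and 48.4 FPKM (0.28).

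The same ratio was then read in the earlier pairs, which are separate libraries of other ages (E13, E15 and E17), not replicates of P0. Of the 242 genes higher at P0, 183 had the same sign at E13, 216 at E15 and 227 at E17, and 175 at all 3 ages. Of the 203 lower genes, 149, 185 and 190 had the same sign, and 138 at all 3. Past 4-fold the same way were 67, 118 and 130 of the higher genes and 86, 102 and 133 of the lower genes. Over all 8193 genes, 4303, 4343 and 4179 were above 0 at those ages, 2182 at all 3, and 234, 215 and 201 were past 4-fold upward. In the other direction, 3871, 3846 and 4009 were below 0, 1794 at all 3, and 300, 227 and 231 were past 4-fold downward. The Pearson correlation of the ratios with P0 over these genes was 0.41 at E13, 0.60 at E15 and 0.68 at E17, given as a description with no p, since genes of 1 library are not independent.

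Levels or ratios at each age are given for 5 genes chosen after their values had been seen. Prokr2 was at 2.79 and 2.56 FPKM at E13, 2.23 and 2.96 at E15, 1.87 and 33.8 at E17 and 5.69 and 113 at P0, GFP-positive first. Nrxn3 was at 60.8 and 73.6 FPKM at E13, 9.06 and 200.2 at E15, 22.3 and 940.02 at E17 and 36.0 and 710 at P0. Its log2 ratio was -0.27 at E13, -4.32 at E15, -5.34 at E17 and -4.27 at P0. Kit was at 56.6 and 11.2 FPKM at E13, 131 and 9.33 at E15, 233 and 20.3 at E17 and 206 and 9.57 at P0. Fabp7 was at 7.73 and 2221 FPKM at E13, 183 and 2825 at E15, 54.6 and 629 at E17 and 172 and 370 at P0, where its log2 ratio of -1.10 was the nearest to 0. Rgs5 had a log2 ratio of -0.71 at E13 and 3.08, 3.27 and 4.45 at the later ages.

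**Figure D5:**
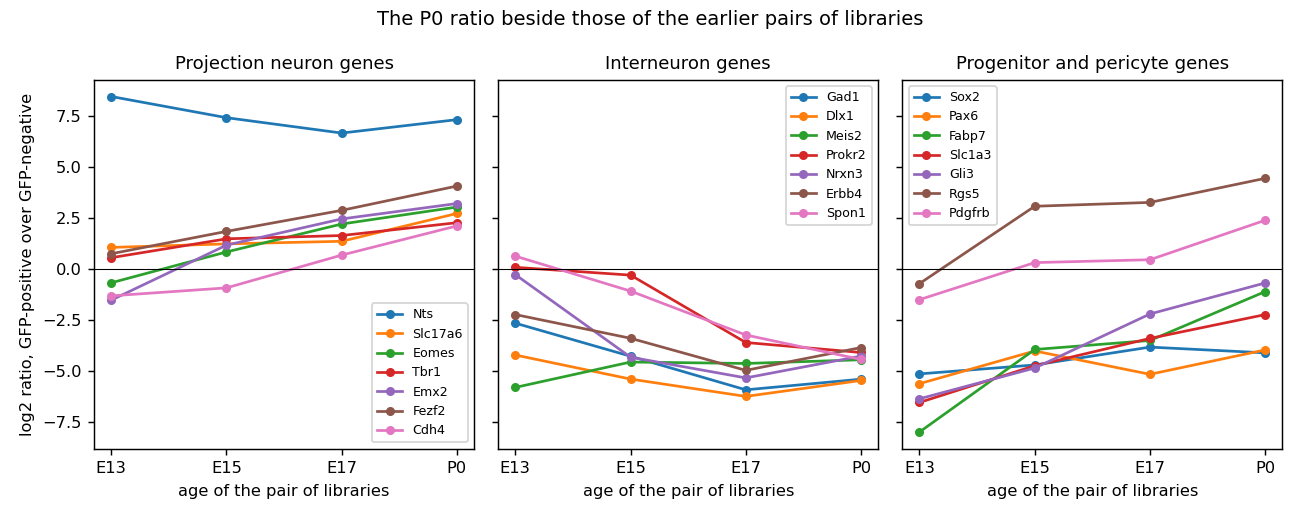
Log2 ratio (FPKM + 1) of GFP-positive over GFP-negative cells for genes chosen after their values had been seen, at E13, E15, E17 and P0; each point is 1 pair of libraries, and lines only join a gene's points. Rgs5 runs from -0.71 at E13 to 4.45 at P0.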

How the data were processed

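The authors deposited FPKM values per gene, in 42084 rows, and set 14 further rows apart, among them Dcx, Malat1 and a row naming Zbtb20, which were not analysed. The submitters' processing notes name TopHat2 2.0.9, CASAVA 1.8.2, Cufflinks 2.2.1 and build mm10. Gene annotation, strandedness and filtering of reads: not given in the sources used here. Per the labels' protocols, the sequencing was single-end.

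Rows of microRNAs and snoRNAs (956) were left out, 21523 rows were at 0 in both P0 libraries and 10316 rows had 5 FPKM or more in the higher P0 library. Ratios used a pseudocount of 1 FPKM, with 2 on the log2 scale as the call. Symbols of 38345 of 41179 single-name rows matched GENCODE M21. The 30 lists, the comparison and the members were chosen with earlier results of these data known. Genes named are the markers, the 20 largest ratios each way, the 8 highest levels in each library and 6 members of each list. Rows naming several genes, predicted and clone names, small RNAs, mitochondrial and Y-linked genes and Xist were left out of the rankings by ratio and level. Some genes that this rule takes are not reported here, and other genes are named too (list members such as Tbr1 or Slc32a1, and those beside the threshold), chosen after their values were seen. Depth came from 3646 genes with 1 transcript, whose low values were whole within 0.1 read in 87.1% and 86.6% of cases by a scale set on those same genes. The ratio code was tested on simulated data. Python 3.11.15, pandas 2.3.3 and NumPy 2.4.6 were used. Alternatives covered pseudocount, minimum, threshold, scaling by median-of-ratios factors (0.996 and 1.00) and the row type.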

Additional observations from a re-analysis of the deposited data

Results flagged for a closer look

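Among the 167 named genes, 4 that were past 4-fold at P0 had at least a 2-fold difference the other way at E13, a rule chosen after the values had been seen; the difference between ages was not tested, with 1 library in each group. Emx2 had a log2 ratio of 3.22 at P0 and -1.52 at E13, where it was at 12.7 FPKM in GFP-positive and 38.4 FPKM in GFP-negative cells. Pdgfrb had 2.40 at P0 and -1.50 at E13, where it was listed at 0 and at 1.82 FPKM. Cacna1g had -2.74 at P0 and 1.98 at E13, and Nr4a1 had -3.10 at P0 and 1.89 at E13.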

How the results depend on the processing

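No paired analysis was possible because there is 1 library in each group, and no library could be left out. Under another minimum the medians of 4 lists changed sign, each below 1 in size: dopaminergic, neuropeptide, growth factor, and GABA and glycine receptor genes. Another pseudocount or scaling turned no list median. Counts of rows moved with the threshold, to 1151 higher and 1029 lower at 2-fold and 240 and 267 at 8-fold. A pseudocount of 5 gave 216 and 235, a minimum of 20 FPKM gave 255 and 264, and single protein-coding genes gave 242 and 203. With a pseudocount of 5, list medians were 1.96 for mitral and tufted, -3.38 for interneuron, -1.19 for radial glia, -1.23 for cell cycle, 1.60 for pericyte and -4.15 for erythroid genes; with 0.1, pericyte genes had 4.65. With a minimum of 1 FPKM, the Cajal-Retzius, cell cycle and neuropeptide medians were 0.78, -1.34 and -0.39. With 20 FPKM, they were 0.76 for dopaminergic (1 gene), -3.75 for cell cycle, 4.45 for pericyte (1 gene), 1.15 for neurotensin, 3.47 for neuropeptide, 0.069 for glutamate receptor and 0.77 for axon guidance genes. Without Nts, an alternative added after seeing the data, the neuropeptide median also changed sign, to -0.39. Of 167 named genes, 52 were higher and 52 lower past 4-fold, against 35 and 34 with a pseudocount of 5 and 57 and 53 with 0.1. A value counts as moved past 1.5 times, a tolerance chosen after the data were seen. Without replicates these ranges are not errors.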

Other observations

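Some of the most abundant named transcripts are given as examples, and each lay within 2-fold between the libraries. Nnat, neuronatin, was at 5983 FPKM in GFP-positive and 4329 FPKM in GFP-negative cells (log2 ratio 0.47), Tuba1a, a tubulin of young neurons, at 3169 and 1772 FPKM (0.84) and Actb at 2740 and 2611 FPKM (0.07). Genes noticed after their values were seen included Gcg, the proglucagon gene, at 23.0 and 1.15 FPKM (3.48), Lpl, lipoprotein lipase, at 21.1 and 0.691 FPKM (3.71) and Nmbr, a bombesin-type receptor, at 1.16 and 34.5 FPKM (-4.04).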
